A study of Mus musculus with 4 samples.

Results

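The cytosolic ribosomal protein genes are the genes that encode the protein subunits of the ribosome of the cytoplasm, and 84 of the 8797 genes in the expression data were chosen by name. A gene was taken if its name began with Rpl or Rps and a digit, or was Rplp0, Rplp1, Rplp2 or Rpsa. The kinases named Rps6k and the names marked as pseudogenes with "-ps" were left out. The choice gave 49 genes of the large subunit (Rpl) and 35 of the small subunit (Rps) by name, on 19 chromosomes. Rps19bp1 entered by its name, although it encodes a protein that binds Rps19 and is not itself a subunit. Rps27rt is a single-exon copy of Rps27, and Rps4l is annotated as a transcribed processed pseudogene.

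Poly(A) RNA was measured in the liver of 4 female F1 mice aged 5 months. Each mouse carried a C57BL/6J (B6) and an MSM/Ms (MSM) chromosome set, and the labels name no treatment or engineered allele. The cross MSM mother x B6 father gave 2 mice and the reciprocal cross B6 mother x MSM father gave the other 2. For each gene and mouse the data held an expression level in FPKM (fragments scaled to transcript length and to the number of mapped fragments) and, where it could be computed, the B6-allele frequency, the share of reads with a known allele that carried the B6 one. The mice are named by mother and replicate number.

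Ribosomal proteins are built into the large and small subunits together with ribosomal RNA, and each subunit normally takes up one molecule of nearly every one of them. Their messenger RNAs are among the most abundant in most cells, and many begin with a C followed by a run of pyrimidines, the 5′ terminal oligopyrimidine tract through which growth signalling controls their translation. The liver, which secretes most plasma proteins, depends on a high output of ribosomes. Ribosomal protein messages have also been copied back into the genome many times, so the mouse genome holds numerous intronless copies that closely resemble the genes themselves.

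That resemblance can be seen in the following sequences, which are shown because the expression levels described below differed most between genes of this kind. The coding sequence of Rps27 (chr3:90212522-90213651, minus strand, GRCm38.p6, a gene with introns) was identical over all 252 bases to that of Rps27rt (chr9:114982366-114982739, minus strand), and differed at 60 of 252 bases from that of its paralog Rps27l (chr9:66946086-66949516, plus strand). The first 60 coding bases are given, with capitals at the bases where Rps27 and Rps27l differ in the pair that follows the plain pair.
Rps27: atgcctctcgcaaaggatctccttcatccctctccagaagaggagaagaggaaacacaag
Rps27rt: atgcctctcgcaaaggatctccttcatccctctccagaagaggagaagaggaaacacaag
Rps27, against Rps27l: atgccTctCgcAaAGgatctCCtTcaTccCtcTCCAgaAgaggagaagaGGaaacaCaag
Rps27l: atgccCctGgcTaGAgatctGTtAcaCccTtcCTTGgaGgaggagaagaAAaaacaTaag

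Rpl26 (chr11:68901583-68906989, plus strand), Rpl30 (chr15:34440505-34443640, minus strand) and Rpl34 (chr3:130726831-130730398, minus strand) have introns, and each has a near-identical processed pseudogene elsewhere that was measured as a gene of its own. Gm15772 (chr5:3236431-3236868) differed from the coding sequence of Rpl26 at 2 of 435 bases, Gm12191 (chr11:49678710-49679057) from that of Rpl30 at 1 of 345, and Rpl34-ps1 (chr6:71124610-71124963) from that of Rpl34 at 2 of 351. A stretch of 40 bases around the first difference is given for each pair, with the differing base in capitals.
Rpl26: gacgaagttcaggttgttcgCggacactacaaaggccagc
Gm15772: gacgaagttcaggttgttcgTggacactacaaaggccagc
Rpl30: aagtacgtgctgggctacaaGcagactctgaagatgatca
Gm12191: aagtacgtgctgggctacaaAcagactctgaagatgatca
Rpl34: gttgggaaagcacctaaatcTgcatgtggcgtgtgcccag
Rpl34-ps1: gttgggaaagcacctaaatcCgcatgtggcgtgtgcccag

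Most of the ribosomal protein genes were expressed at a high level. Their median mean FPKM was 309, against 11.5 for all genes, and 61 of the 84 were among the 500 genes of highest mean FPKM. The median was 301 for the Rpl genes and 363 for the Rps genes. In 73 genes the mean FPKM was at least 100, and in 8 it was under 50. The highest mean belonged to Rps2 of the small subunit, with 1091 FPKM in MSM mother replicate 1, 797 in MSM mother replicate 2, 770.1 in B6 mother replicate 1 and 884 in B6 mother replicate 2. Rpl41, which encodes the smallest ribosomal protein, had 1179, 767, 615 and 779 FPKM in the same order of mice, which is kept below. Rplp1, a protein of the stalk that recruits translation factors, had 1016, 736, 695 and 791 FPKM. The mouse listed first was the highest for all of these genes. Rpl10, an X-linked gene whose protein joins late in the maturation of the large subunit, had a mean of 637 ± 47.0 FPKM (SD, n = 4), and Rps18, a protein of the head of the small subunit, had 597 ± 100.3.

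**Figure D1:**
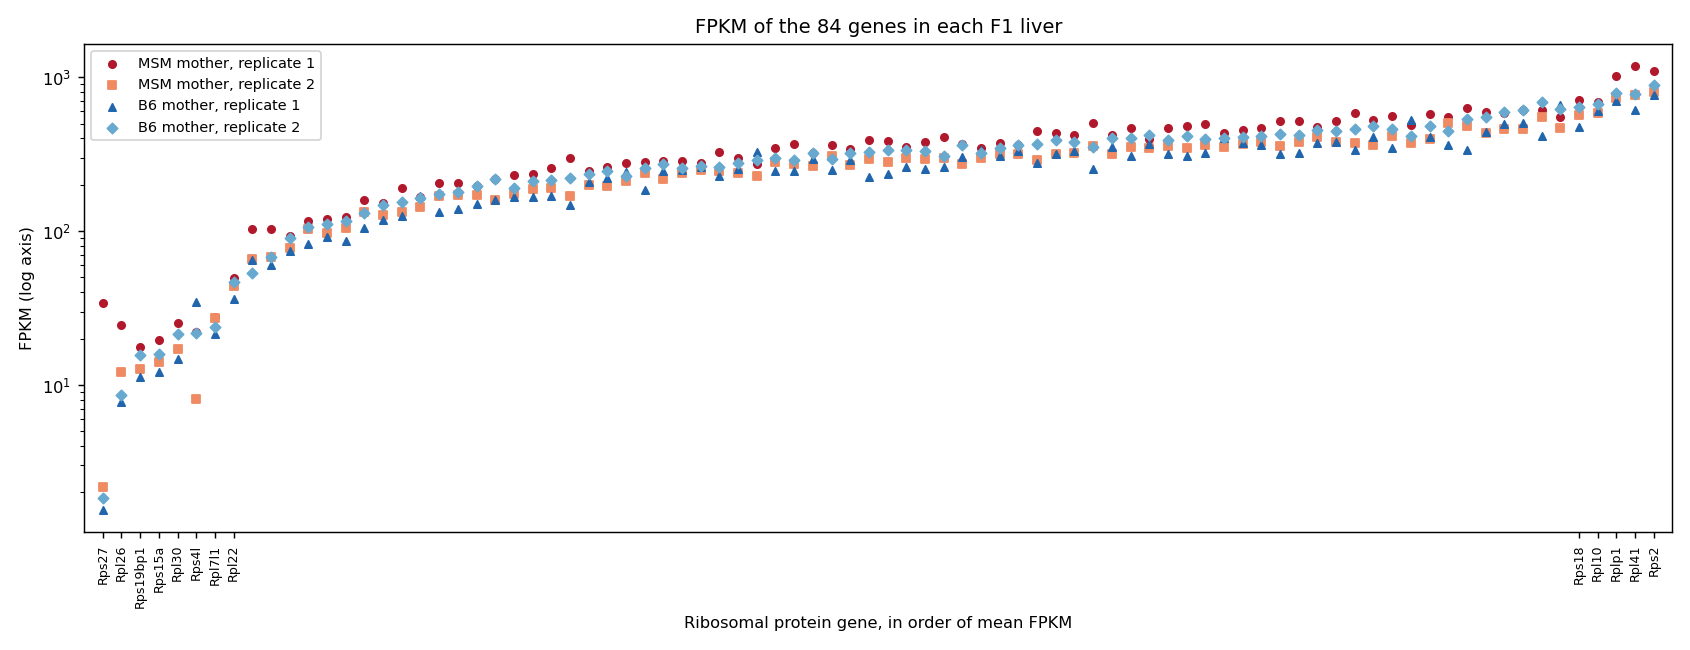
FPKM (log axis) of the 84 genes in each of the 4 F1 livers, in order of mean FPKM, with names at both ends. Most genes lie between 100 and 1000, while Rps27, Rpl26, Rps19bp1, Rps15a and Rpl30 stand at the low end and Rps2 at the high end.

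At the low end stood Rps27, with 34.1, 2.18, 1.54 and 1.83 FPKM. The first of these values was far above the other 3, and the coefficient of variation over mice was 163%, the largest of the 84 genes. Rpl26 had 24.4, 12.1, 7.69 and 8.64 FPKM, with both MSM mother mice above both B6 mother mice. Rps19bp1 had a mean of 14.3 ± 2.91 FPKM (SD, n = 4), Rps15a 15.4 ± 3.11 and Rpl30 19.6 ± 4.596. Just above them were Rps4l with 21.7 ± 10.9 FPKM, Rpl7l1 with 25.1 ± 2.99 and Rpl22 with 44.1 ± 5.75.

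Several of these low genes were the ones with a near-identical copy measured beside them. Where Rps27 was lowest, the identical copy Rps27rt had 615, 549.6, 417 and 693 FPKM. In every mouse it exceeded Rps27, by 18.0 to 378 times. Gm15772 had 487, 393, 400.02 and 518 FPKM, which was 20.001 to 59.96 times the level of Rpl26. Gm12191 had 380.1, 306, 280.01 and 348 FPKM, or 15.1 to 19.04 times that of Rpl30. The ratio was smaller for Rpl34, with 104, 68.3, 60.4 and 67.4 FPKM, against 313, 279.7, 194 and 312 FPKM for Rpl34-ps1. The reverse order was found for Rpl14, whose mean of 159.8 FPKM lay above the 36.3 FPKM of Rpl14-ps1, which differed from the coding sequence at 4 of 648 aligned bases with 3 further gap positions, and for Rps19, with a mean of 170.4 FPKM against 2.88 for Rps19-ps3. Summed with its copy, the mean level was 579 FPKM for Rps27, 463 for Rpl26, 348 for Rpl30 and 349.6 for Rpl34. The mean levels of the ribosomal protein genes ran from 9.91 to 886 FPKM. Nearly any sum would lie in so wide a range, so these sums are given as a description only. With reads kept at a single alignment each, reads from a gene and from a near-identical copy can be exchanged, so the levels of both members of such a pair are uncertain; how the reads were divided was not tested.

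**Figure D2:**
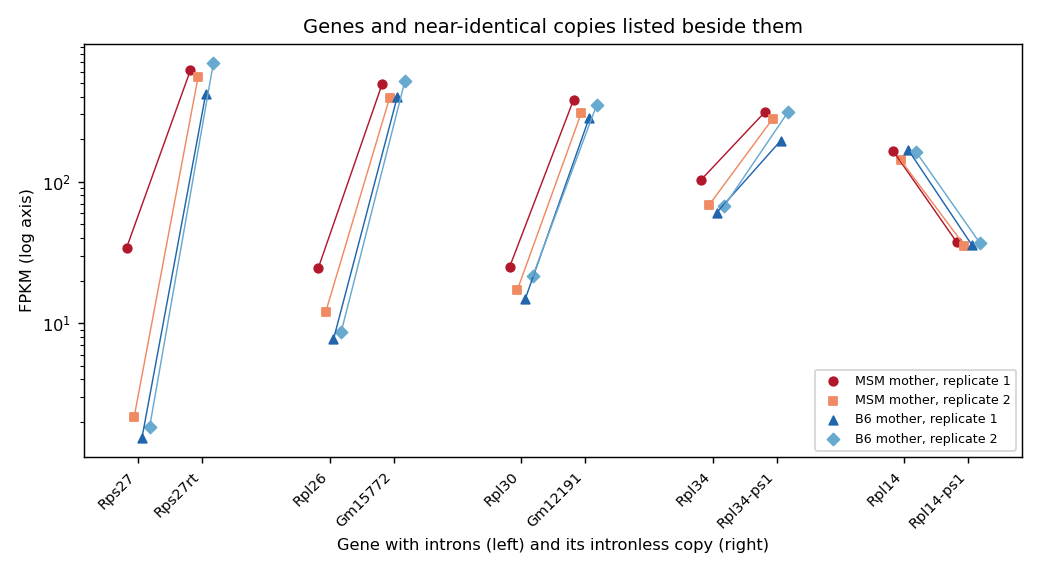
FPKM (log axis) of 5 genes with introns and of the near-identical intronless copy measured beside each, with a line for each of the 4 mice. Rps27, Rpl26, Rpl30 and Rpl34 lie below their copies in every mouse, and Rpl14 lies above Rpl14-ps1.

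Near-identical copies were common throughout the genome. A copy with at least 95% identity over at least 80% of the coding sequence was found on the assembled chromosomes for 78 of the 84 genes, and 21 had an identical copy. The median was 6 copies per gene. The largest numbers were 55 for Rpl21, 30 for Rpl7a, 28 for Rpl29, 25 for Rps2, 23 for Rps12 and 22 for Rpl17. Genes without such a copy included Rpl8, Rps3, Rps27l, Rps4l and Rps19bp1. Of the 595 copies, counted gene by gene so that a locus can enter for several genes, 7 lay at a short gene measured under its own name. Longer measured genes around a copy were not counted. The number of copies was not related to the level in any simple way (Spearman's rho 0.11 across the 84 genes, as a description, since genes of one set of libraries are not independent). Rps2 had 25 copies and the highest level, while Rpl21 had 55 copies and a mean of 83.7 FPKM.

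Paralogs that are not near-identical had levels of their own. Rps27l had 504, 359, 253 and 351 FPKM, at a sequence identity of 76.2% to Rps27. Rpl36al, an intronless paralog on chromosome 12, had 363, 305, 248 and 293 FPKM, and X-linked Rpl36a had 158, 133, 105 and 130.1 FPKM. The ratio of these paralogs stayed between 2.26 and 2.37 in all 4 mice, with a coding identity of 87.7%. Rpl22l1 exceeded Rpl22 by 1.16 to 2.08 times. Rpl7l1, which is related to Rpl7 and works in ribosome assembly, stood at 25.1 FPKM against 383 FPKM for Rpl7. Rps4l stood far under X-linked Rps4x, whose levels were 432, 354, 402 and 405 FPKM.

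The start of the transcript was examined in the RefSeq promoters of GRCm38.p6, which held an entry for 63 of the 84 genes. On the strand of the gene, a C at the annotated first base followed by at least 4 bases that were each C or T occurred in 14 of 74 promoters of these genes (18.9%) and in 2.51% of all 32851 promoters of the same length. The genes with it were Rpl14, Rpl15, Rpl28, Rpl35, Rpl35a, Rpl38, Rplp2, Rps10, Rps15a, Rps18, Rps21, Rps27, Rps27rt and Rps6. A match is a description of letters at the annotated base, and a start annotated a few bases away would be missed. The 10 bases before and the 20 bases from the annotated start are given for some genes, with the run of pyrimidines from the first base in capitals. The printed starts are mostly matches and do not reflect the share above. Rps2, Rpl10a, Rpl13 and Rpl36a, which recur in the results, had no match and are not printed.
Rpl14, chr9:120571507-120571536, plus strand: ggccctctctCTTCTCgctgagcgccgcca
Rplp2, chr7:141447641-141447670, plus strand: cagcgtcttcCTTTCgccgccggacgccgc
Rps27, chr3:90213629-90213658, minus strand: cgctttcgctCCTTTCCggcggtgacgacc
Rps27rt, chr9:114982720-114982749, minus strand: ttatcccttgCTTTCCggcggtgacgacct
Rps10, chr17:27635225-27635254, minus strand: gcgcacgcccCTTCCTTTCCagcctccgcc
Rps4x, chrX:102189372-102189401, minus strand, without a match: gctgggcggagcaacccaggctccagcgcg
From the annotated start, Rps27 and Rps27rt held the same letters offset by a base, and the letters before the start differed.

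Across the mice the ribosomal protein genes moved as a block. Their summed FPKM was 30793, 23632, 22693 and 27045. MSM mother replicate 1 was highest for 74 of the 84 genes (88.1%), whereas 39.2% of all 8764 genes above 0 in every mouse were highest there. B6 mother replicate 1 was lowest for 54 of them (64.3%), against 32.4% of all genes. The most common order of the 4 mice among these genes was shared by 44 of them (52.4%), against 10.1% of all genes. That order was picked from the ribosomal protein genes themselves, which favours them in the comparison. The spread of a gene over mice fell from a median SD of 0.23 on the log2 FPKM scale to 0.11 once the median of the 84 genes in each mouse was subtracted. Subtracting the median of a group from its own genes lowers their spread in part by construction. For all genes the median SD rounded to 0.16 both before and after centring.

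The positions of these mice were shared by other genes. On the log2 scale relative to the mean of each gene, the median of the 84 genes was 0.25, -0.11, -0.22 and 0.07 in the 4 mice. In 140 other genes with a transcript of at most 1000 bases and a mean FPKM of at least 100, a group chosen after the values had been seen, it was 0.39, -0.04, -0.28 and -0.04. The other genes of at least 100 FPKM with a transcript longer than 2000 bases (n = 299) had 0.07, -0.03, -0.03 and 0.00. Genes of mitochondrial ribosomal proteins (n = 77) had 0.24, -0.02, -0.18 and -0.01, and proteasome subunit genes (n = 38) had 0.21, -0.06, -0.14 and -0.02. MSM mother replicate 1 was thus highest in each of these groups, most in the short genes and least in the long ones. B6 mother replicate 1 was lowest in the other groups, and in the long genes it was level with MSM mother replicate 2 at -0.03. The part of transcript length or RNA quality in these positions was not tested. The share of the summed FPKM taken by the ribosomal protein genes varied less, at 4.58%, 4.38%, 4.29% and 4.72%. In the first of these mice the repeat-derived Mir3470a alone was listed at 47024 FPKM, and its removal raised the share there to 4.93%.

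**Figure D3:**
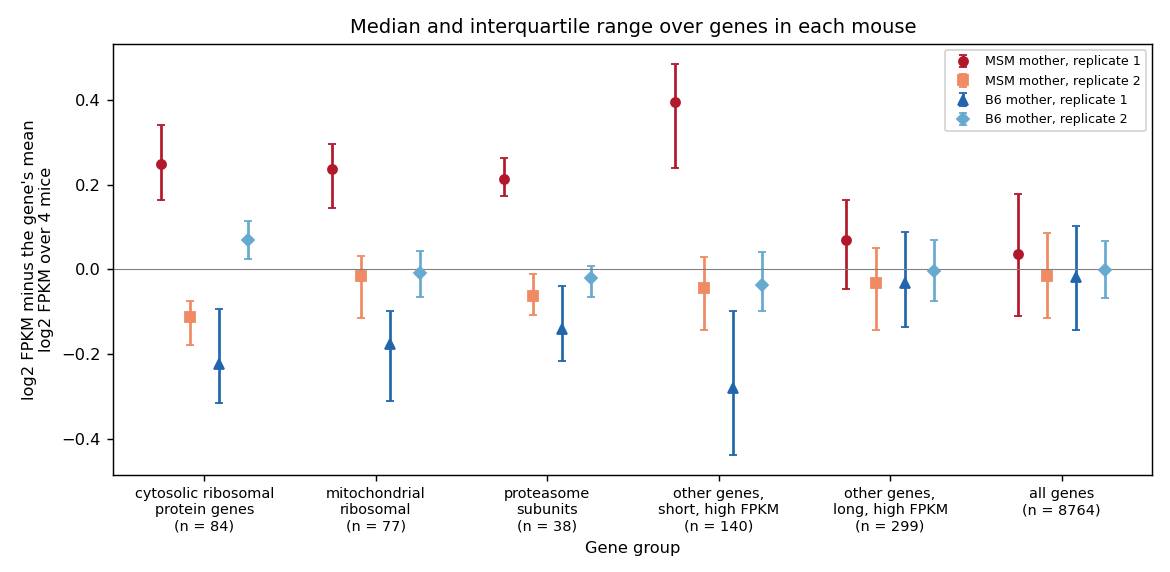
Median (point) and interquartile range (bar) over genes of log2 FPKM relative to the gene's mean in each of the 4 mice, for ribosomal protein genes and 5 other gene groups. The ribosomal protein genes and the other short, highly expressed genes are highest in MSM mother, replicate 1 and lowest in B6 mother, replicate 1, while the medians of all genes lie near 0.

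No ribosomal protein gene passed the test of expression between the reciprocal crosses. In limma, 0 of the 84 genes had an adjusted p under 0.05, against 0.0455% of all 8797 genes, and 1 of the 84, Rpl26, had an unadjusted p under 0.05, against 8.87% of all genes. The level of 65 genes (77.4%) was higher with an MSM mother, against 54.1% of all genes. On the log2(FPKM + 1) scale the median difference, MSM mother minus B6 mother, was 0.17 for the 84 genes and 0.02 for all genes. Scaled to the same summed FPKM, 45 genes were higher, with medians of 0.04 and -0.10. After quantile normalization 48 were higher, with medians of 0.04 and 0.001. Without MSM mother replicate 1, 33 genes were higher and the median was -0.04, against 0.001 for all genes. The summed FPKM averaged 27212 ± 5063 (SD, n = 2) in the MSM mother mice and 24869 ± 3077 (SD, n = 2) in the B6 mother mice, which did not differ beyond the spread between mice (exact permutation test, two-sided, p = 0.667, where 2 against 2 mice can give no p below 0.333). The levels of 11 of the 84 genes did not overlap between the crosses, against 42.4% of all genes.

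The largest differences towards an MSM mother were those of Rps27, Rpl26 and Rps27l. On the log2(FPKM + 1) scale the difference of Rps27 was 1.98 ± 1.023 (SE, limma adjusted p = 0.599), and it rested on the single mouse with 34.1 FPKM, without which it was 0.25. That of Rpl26 was 0.99 ± 0.30 (limma adjusted p = 0.472), and without the same mouse it was 0.51. For Rps27l it was 0.51 ± 0.25 (limma adjusted p = 0.591). Towards a B6 mother the differences of Rps4l and Rpl28 were the largest. The difference of Rps4l was -0.97 ± 0.45 (limma adjusted p = 0.580), with 22.2 and 8.16 FPKM against 34.8 and 21.6, and without MSM mother replicate 2 it was -0.30. Rpl28, a large-subunit gene, had 554 and 468 against 664 and 621 FPKM, a difference of -0.33 ± 0.18 (limma adjusted p = 0.609). For Rpl28 the crosses did not overlap.

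The B6-allele frequency was the share of allele-assigned reads that carried the B6 allele. It was given in all 4 mice for 32 of the 84 genes, 20 Rpl and 12 Rps genes. Whether a gene had one followed its position. Of the 37 genes that started beyond 100 Mb on chromosomes 1 to 15 or X, or beyond 10 Mb on chromosomes 16 to 19, 30 had a frequency, and of the other 47 only Rplp1 and Rpl4 did. Among all genes the shares were 89.8% beyond these coordinates and 1.96% below them. The genes beyond them without a value were Rpl5, Rpl29, Rpl32, Rpl36, Rpl38, Rps27rt and Rps28.

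Most of the 32 genes had messages in nearly equal amounts from both alleles. Reads from a near-identical copy can also enter a frequency, and how far they did was not tested. The mean frequency lay from 0.45 to 0.55 in 23 of them (71.9%), against 56.4% of all 3632 genes with a frequency. Within the wider limits of 0.4 and 0.6 lay 25 of them (78.1%), against 79.0% of all genes. The median frequency was 0.505, and 0.510 for all genes. Their median within-cross SD was 0.0199, against 0.0253 for all genes and 0.0131 for the 406 genes averaging at least 100 FPKM. The uncalled autosomal genes beyond the coordinates (n = 22) had mean frequencies from 0.469 for Rpl34 to 0.540 for Rpl7l1. Of their 88 single values 84 lay between 0.45 and 0.55. The called and X-linked genes had been set aside first, so values near 0.5 follow in part from that choice.

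The values of some genes near 0.5 were very close between mice, as in the 4 given first. Others varied more, such as Rpl34 with an SD over mice of 0.037. Rpl24 had 0.505, 0.507, 0.508 and 0.498, and Rpl35a, whose gene is known from Diamond-Blackfan anaemia, had 0.484, 0.482, 0.492 and 0.482. Rpl6 had 0.509, 0.507, 0.508 and 0.497, and Rpl41 had 0.481, 0.4999, 0.508 and 0.491. None of these 4 genes passed the test of balance described below, although Rpl35a lay below 0.5 in all 4 mice (limma adjusted p = 0.203). Mean frequencies below 0.5 were also found, among others, for Rps14 (0.473), Rpsa (0.473), Rps15a (0.481), Rplp0 (0.490), Rps21 (0.491) and Rps26 (0.491). Those above it were Rps13 (0.504), Rpl27 (0.505), Rpl22 (0.505), Rpl17 (0.514), Rps18 (0.514), Rpl11 (0.527), Rpl21 (0.527), Rps10 (0.528) and Rpl27a (0.532). The pseudogene Rpl34-ps1 had 0.470, 0.492, 0.488 and 0.486, against 0.495, 0.493, 0.472 and 0.415 for Rpl34, and the values were furthest apart in B6 mother replicate 2.

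Allelic imbalance towards B6 was called in 7 genes and towards MSM in none. limma compared the mean log2 odds of the B6 allele with 0 at an adjusted p of 0.05, and called 22.6% of all 3632 genes towards B6 and 13.6% towards MSM. The 7 of 32 genes towards B6 (21.9%) were thus about as frequent as in the background. At an unadjusted p under 0.05, 11 of the 32 passed (34.4%), against 49.1% of all genes, and 2 of them, Rps4x and Rpsa, lay towards MSM, against 19.8% of all genes. When a single mouse was left out, 2 to 3 of the 32 genes were called towards B6, and the share of all 3632 genes called towards B6 in the same fits fell to between 2.97% and 8.67%. The median log2 odds was 0.03 for the 32 genes and 0.06 for all genes.

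**Figure D4:**
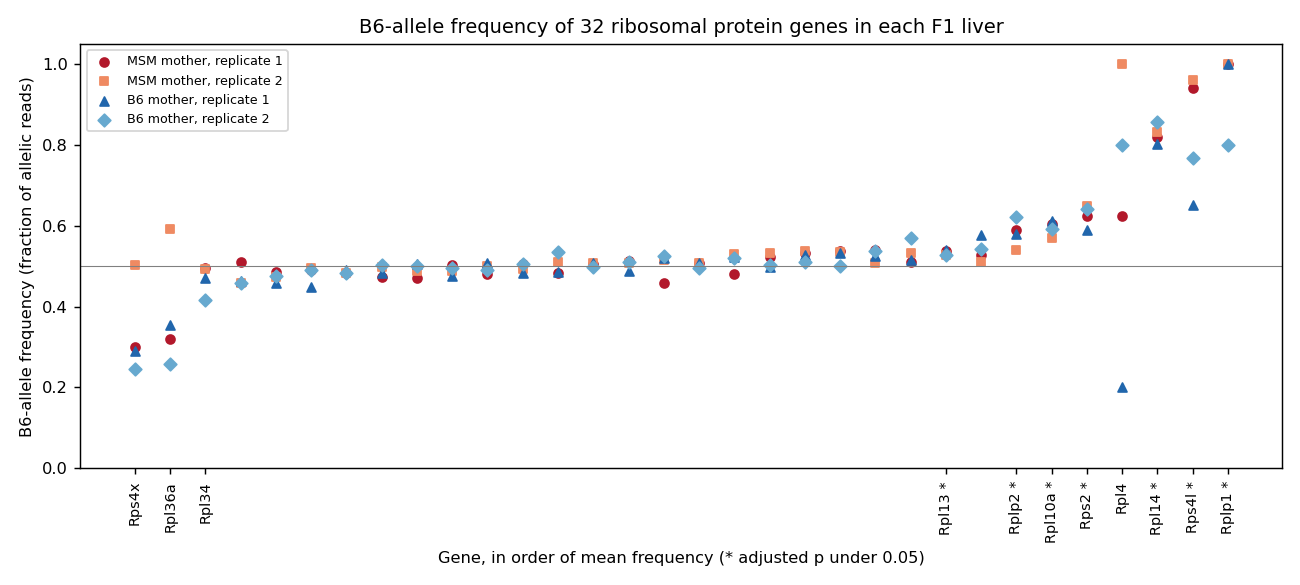
B6-allele frequency (fraction of allele-assigned reads) of the 32 ribosomal protein genes in each of the 4 mice, in order of the mean, with the called genes, both ends and Rpl4 named. Most genes lie close to 0.5, Rps4x and Rpl36a lie below it in 3 of the 4 mice, and Rpl14, Rps4l and Rplp1 have means above 0.8.

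Rpl14 had the most even strong imbalance. This large-subunit gene (chr9:120571444-120574654, plus strand) had frequencies of 0.819, 0.833, 0.803 and 0.856, and its log2 odds were 2.27 ± 0.12 (SE; limma adjusted p = 0.00441). All 4 mice lay above 0.8, and the crosses overlapped. Multiplying FPKM by frequency gave 136, 119, 135 and 139.6 FPKM from the B6 allele and 30.03, 23.8, 33.0 and 23.4 FPKM from the MSM allele. Its single near-identical copy, Rpl14-ps1, had no frequency.

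Rps4l (chr6:148354656-148355598, plus strand) had the widest range between crosses among the called genes beyond the coordinates. Its frequencies were 0.940 and 0.961 in the MSM mother mice and 0.653 and 0.767 in the B6 mother mice, so that the crosses did not overlap and all mice lay above 0.5. The mean log2 odds was 2.80 ± 0.20 (SE, limma adjusted p = 0.00626), and without B6 mother replicate 2 it was 2.60 and no longer passed (limma adjusted p = 0.0516). From the B6 allele came 20.8, 7.83, 22.7 and 16.6 FPKM, and from the MSM allele 1.32, 0.322, 12.1 and 5.04 FPKM. The coding part of Rps4x and the matching part of Rps4l differed at 161 of 789 bases. The first 60 bases around the first difference show this, with the differing bases in capitals.
Rps4x: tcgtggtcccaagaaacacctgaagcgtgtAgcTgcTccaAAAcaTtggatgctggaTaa
Rps4l: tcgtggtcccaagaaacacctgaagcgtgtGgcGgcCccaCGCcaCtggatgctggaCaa

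Smaller shifts towards B6 were found in 4 genes. Rps2 (chr17:24718116-24721929) had 0.623, 0.649, 0.589 and 0.641, and log2 odds of 0.74 ± 0.08 (SE; limma adjusted p = 0.0117). Rpl10a (chr17:28328471-28331033) had 0.603, 0.570, 0.613 and 0.591, with log2 odds of 0.55 ± 0.06 (limma adjusted p = 0.0124). The acidic stalk protein gene Rplp2 (chr7:141447370-141451585) had 0.589, 0.540, 0.580 and 0.623, with log2 odds of 0.48 ± 0.09 (limma adjusted p = 0.0293). In all 3 genes every mouse lay above 0.5. Rpl13 (chr8:123102350-123105244) was near balance, at 0.538, 0.528, 0.540 and 0.529, and its log2 odds of 0.19 ± 0.04 passed narrowly (limma adjusted p = 0.0487). Rps2 and Rpl10a both lie on chromosome 17. Rps10, which lies between them, had a mean of 0.528 with every mouse above 0.5 and was not called (limma adjusted p = 0.105). A part of the region in these shifts was not tested. Rps2 has 25 near-identical copies in the genome. Each of these 4 calls was lost when any single mouse was left out, with the same sign and limma adjusted p from 0.0504 to 0.192, in the fits in which fewer of all genes were called as well.

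Rplp1 and Rpl4, on chromosome 9 below the coordinates, gave frequencies in coarse steps. Rplp1 had 1, 1, 1 and 0.8 (log2 odds 5.47 ± 0.90, limma adjusted p = 0.0253) at a mean level of 809.7 FPKM, and without MSM mother replicate 1 or 2 it no longer passed (limma adjusted p = 0.107 and 0.105). Its log2 odds were set by the limits put on the frequency, at 3.69 with limits of 0.05 and 0.95 and 7.97 with limits 0.001 away from 0 and 1. Rpl4 had 0.625, 1, 0.2 and 0.8 (log2 odds 1.84 ± 1.38, limma adjusted p = 0.360) at a mean level of 344 FPKM, so that its mice lay on both sides of 0.5. The median within-cross SD of frequency was 0.243 for the 95 genes below the coordinates and 0.0245 for those beyond them. The number of allele-assigned reads behind each frequency is not known.

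A mean frequency of at least 0.8 was reached by 3 genes, Rpl14, Rps4l and Rplp1, against 1.84% of all genes, and none had a mean of at most 0.2, against 1.35%. In every mouse, the limit of 0.8 was reached by Rpl14 and Rplp1.

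The X-linked genes followed their chromosome mouse by mouse. Rps4x (chrX:102184941-102189394) had frequencies of 0.301, 0.503, 0.291 and 0.246, and Rpl36a (chrX:134585654-134588062) had 0.320, 0.593, 0.354 and 0.259. The mouse listed second, MSM mother replicate 2, was the only one near or above 0.5 for both. The median of the 75 other X-linked genes apart from Xist, which silences one X in female cells, was 0.324, 0.532, 0.324 and 0.267 in the same mice. Rps4x differed from this median by -0.0329 to -0.0214 in the 4 mice. Rpl36a lay 0.0608 above it in the mouse listed second and within 0.0302 of it in the others. Xist itself was lowest in MSM mother replicate 2, with 0.760, 0.533, 0.748 and 0.7997. Among the 78 X-linked genes, 72 were highest in MSM mother replicate 2, against 25.6% of autosomal genes, and the median of the autosomal ribosomal protein genes stayed between 0.508 and 0.511 in the 4 mice.

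**Figure D5:**
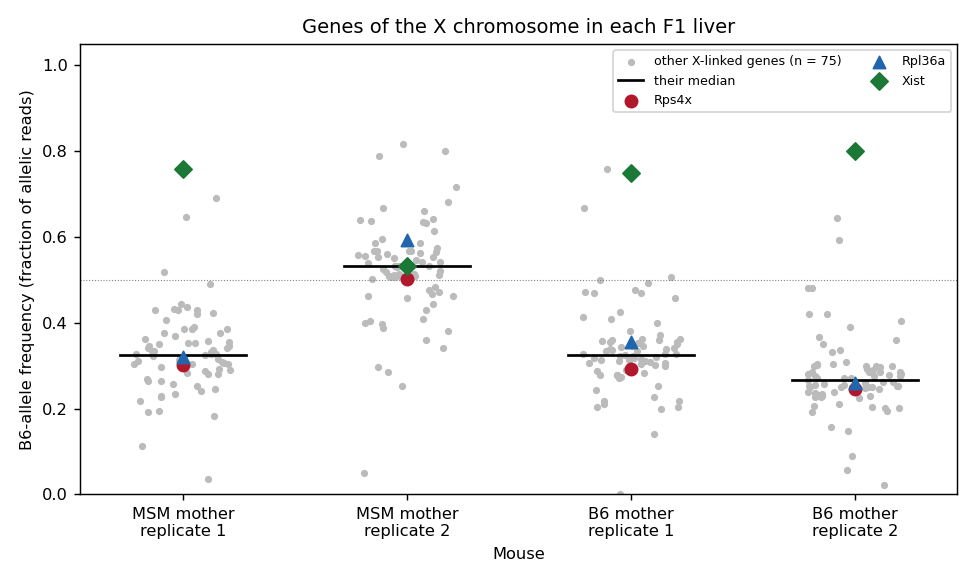
B6-allele frequency (fraction of allele-assigned reads) of X-linked genes in each of the 4 mice, with the 75 other genes in grey and their median as a bar. Rps4x and Rpl36a lie near the median in each mouse, at 0.503 and 0.593 in MSM mother, replicate 2 and below 0.5 in the other 3, while Xist lies above 0.7 in those 3.

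In the mean over crosses, the log2 odds were -1.03 ± 0.25 for Rps4x (SE; limma adjusted p = 0.0567) and, for Rpl36a, -0.73 ± 0.34 (limma adjusted p = 0.187). Without MSM mother replicate 2, the log2 odds of Rps4x was -1.33 and passed (limma adjusted p = 0.0414). Both genes had a higher B6 share in that mouse than in the other mouse of its cross. Of the remaining X-linked members, Rpl10 and Rpl39 had no frequency.

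The parent of origin was asked by comparing the frequencies of the reciprocal crosses. In limma, 0 of the 32 genes had an adjusted p under 0.05, against 0.0826% of all genes, and 1 of the 32, Rps4l, had an unadjusted p under 0.05 (limma adjusted p = 0.626), against 5.23% of all genes. Its mean frequency was 0.241 higher with an MSM mother, that is, the B6 share was larger when B6 came from the father. In 9 of the 32 genes the crosses did not overlap, against 34.3% of all genes.

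Other genes of translation were compared by lists chosen by name. Fau, which encodes a ribosomal protein fused to a ubiquitin-like protein, had a mean level of 461 FPKM and no frequency. Of 23 translation initiation genes with a frequency, 4 were called towards B6 and 2 towards MSM. Eif2ak1, the kinase that responds to low haem, had a mean frequency of 0.571, and Eif4e, the cap-binding factor, had 0.419 (limma adjusted p = 0.0121 and 0.0395). None of 4 elongation and termination genes was called. Of 19 ribosome biogenesis genes, 4 were called, all towards B6, with Nop2, a methyltransferase of ribosomal RNA, at 0.722 (limma adjusted p = 0.0184) and Ubtf, a factor of ribosomal RNA transcription, at 0.593 (limma adjusted p = 0.0103). Of 25 mitochondrial ribosomal protein genes, 8 were called towards B6 and 2 towards MSM, and of 17 proteasome subunit genes, 3 and 1. The share called in either direction was 23.5% in the proteasome subunits and 36.2% in all genes, and no difference between these groups was tested.

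The tissue matched its label. The 5 measured hepatocyte markers, such as Apoa1 and Cyp2e1, summed to between 15277 and 21339.8 FPKM in each mouse, while the Kupffer cell markers summed to between 128 and 177 and the endothelial markers to between 112 and 131. Erythroid markers summed to 133, 45.2, 159 and 51.4 FPKM, so that replicate 1 of each cross was higher than replicate 2. The 3 measured stellate cell markers summed to between 90.6 and 128 FPKM and, like the ribosomal protein genes, were highest in MSM mother replicate 1 and lowest in B6 mother replicate 1, and their part in that order was not tested. No B or T cell marker was measured, and in bulk tissue fewer cells of a type and less RNA per cell cannot be told apart.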

How the data were processed

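mRNA-seq of the liver of 4 female F1 mice was analyzed. According to the paper's methods, trimming by the authors used Trim Galore, and alignment used TopHat2 on the mm10 genome with SNP positions masked (library strand set, a single alignment kept per read). The authors then estimated FPKM per gene. To make the B6-allele frequency, a fraction, the authors separated reads by allele with SNPsplit and counted them with Cuffdiff. Versions are not given in the sources used here. The deposited values hold FPKM and this fraction only, so reads per allele and their counting error are unknown, and precision was taken from the spread between mice. The 2 mice of a cross are separate progeny; whether they shared a litter is not stated.

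Frequencies were limited to 0.01 to 0.99, turned into log2 odds and fitted over all 3632 genes with limma 3.58.1 (R 4.3.3). The average over crosses was compared with 0, and the cross term gave their difference. log2(FPKM + 1) was fitted over all 8797 genes with a variance trend. A fold on this scale understates the change of low genes. All p-values are two-sided and adjusted by Benjamini-Hochberg over all genes, with a threshold of 0.05. The fits were tried on simulated data with effects larger than most of those reported here, so the detection of smaller ones was not tested. Positions were taken from GENCODE M21. Coding sequences, or exons where no coding sequence is annotated, were aligned to GRCm38.p6 with blastn 2.17.0. Coding sequences replaced the planned whole transcripts, whose repeats matched widely. Python 3.11.15, numpy 2.4.6, pandas 2.3.3, scipy 1.17.1 and matplotlib 3.10.9 were used.

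The members and lists were chosen with earlier results of these data known. Named were all genes with a frequency, the 5 highest and 5 lowest in mean FPKM, the 3 with the largest cross difference in each direction, paralogs, and up to 4 called genes per list. The pseudogene copies, Mir3470a, Xist and the genes with most copies were named after their values were seen. A few genes that this rule covers are not reported here. Alternatives were other limits, scales, filters, pseudocounts, scalings, a replicate block and leaving out each mouse.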

Additional observations from a re-analysis of the deposited data

Results flagged for a closer look

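The 4 F1 mice were also taken as a single group, and a value was singled out when its gap to the nearest other mouse was too large a part of the whole range (Dixon's 95% limit for 4 values). Over 84 sets of FPKM values and 32 sets of frequencies, 8 values stood apart in 116 sets. By chance about 1 set in 20 would hold such a value. Of the 84 FPKM sets 1 held one, and of the 32 frequency sets 7 did, a larger share than 1 in 20. Genes of the same 4 mice are not independent, so the values are listed as a description. Rps27 had 34.1 FPKM in MSM mother replicate 1, against 1.54 to 2.18 in the others. The remaining 7 were B6-allele frequencies. Rplp1 had 0.8 in B6 mother replicate 2 and 1 in the others. In the same mouse Rpl21 had 0.502, against 0.533 to 0.538, and Rpl6 had 0.497, against 0.507 to 0.509. In B6 mother replicate 1, Rpl27 had 0.487, against 0.508 to 0.512, and Rps15a had 0.448, against 0.490 to 0.495. In MSM mother replicate 1, Rpl22 had 0.459, against 0.517 to 0.525, and Rps14 had 0.511, against 0.458 to 0.463.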

How the results depend on the processing

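No result changed direction among the single genes tested. The count of 7 genes called towards B6 was 2 to 3 when a mouse was left out, which leaves a single mouse in that cross and assumes that it varies like the others, and the share of all genes called towards B6 fell, from 22.6% to between 2.97% and 8.67%. Leaving out a mouse gave 0 to 1 genes called towards MSM, 0 for the frequency between crosses and 0 to 1 for expression. The gene called without MSM mother replicate 2 was Rps27 for expression and Rps4x for MSM. A gene was also called towards MSM, 1 in place of 0, on the frequency scale, with only genes beyond the coordinates, with each mouse shifted to a median of 0 and with robust empirical Bayes; it was Rps4x in each. Rpl14 passed in every alternative, and Rpl13 was lost in 8 of them. With thresholds of 0.9 and 0.1, 1 gene in place of 3 passed the upper limit, and leaving out a mouse gave 3 to 4. The difference in summed FPKM of 2343 ranged from -1237 to 5923 when a mouse was left out, and as a share of the summed FPKM it was -0.0246 percentage points.

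With a replicate block, 4 of the 32 genes were called towards B6, against 13.2% of all genes, and 3 of the 84, Rps27, Rpl26 and Rps4l, in expression between crosses, against 3.24% of all genes. The labels do not say that equal numbers pair the mice, and the deviations of same-numbered mice correlated at 0.00375 for log2 FPKM and 0.146 for log2 odds, so the pairing was not used. Depth per allele is unknown, which limits Rplp1 and Rpl4 most. A difference between 2 and 2 mice is detected only when it is large.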
